A study of Mus musculus with 32 samples.

Results

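Fga, Fgb and Fgl1 are the genes of the fibrinogen alpha chain, the fibrinogen beta chain and fibrinogen-like protein 1, 3 of the 9026 named genes among 17060 features measured in liver and spleen of cloned mice. They were selected on their measured log2 ratios of clone to pool in the livers of these same arrays, which lay low, so their liver values against the pool are given here as a description, with no test. The spleen values and the difference between the genotypes in liver were not the basis of the choice and were tested. The liver difference is not fully independent of the choice, since it is formed from the same liver values. This holds most for Fga, which had been singled out in wildtype clones.

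The study asked how mice made by somatic nuclear transfer differ in gene expression from conventional mice of their own genotype. The cloned animals were Dll1 clones, set against a pool of Dll1 heterozygotes, and wildtype clones, set against a pool of wildtype mice. Dll1 encodes a Notch ligand. All clones and pool mice were males of strain 129/SvJ, 18 to 19 weeks old, with 4 clones per genotype and both organs taken from each clone. Each organ of each clone was hybridised on 2 two-colour arrays, once with the clone in the red dye Cy5 and once in the green dye Cy3, which gave 32 arrays in 4 groups: Dll1 clone liver, wildtype clone liver, Dll1 clone spleen and wildtype clone spleen. The protocol states a pool of 6 animals, whereas the labels list 4 mouse identifiers per pool. A pooled reference gives no measure of the spread between conventional mice, so the p-values below rest on the spread between clones alone. The sources used here give neither the Dll1 allele nor the number of donor cell lines behind the clones.

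Fibrinogen is a soluble plasma glycoprotein that hepatocytes assemble from alpha, beta and gamma chains and secrete, and thrombin turns it into the fibrin mesh of a clot. The genes of the chains are switched on together in hepatocytes, where the liver factors HNF1 and C/EBP act on those of the alpha and beta chains. Interleukin-6 raises the chain genes further through STAT3 in the acute phase response. Fgl1, also called hepassocin, is secreted by hepatocytes, carries the globular domain found at the end of the fibrinogen beta and gamma chains, is known as a mitogen for hepatocytes, and binds the inhibitory T cell receptor LAG-3. The array also held Fgg, the gene of the gamma chain, which is described beside the members as the remaining part of the same protein. Each of these genes was measured by 1 probe.

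In the RefSeq annotation of mouse build GRCm38.p6, Fgg, Fga and Fgb lie next to each other on chromosome 3 with no other protein-coding gene between them, and Fgl1 lies on chromosome 8. The 250 bases before the start of each chain gene are shown 5′ to 3′ on the strand of the gene, because Fga and Fgb lay low together in liver and liver factors are known to act on the proximal promoters of these genes. They cover chr3:83025903-83026152 on the plus strand for Fga, chr3:83049864-83050113 on the minus strand for Fgb and chr3:83007474-83007723 on the plus strand for Fgg. Capitals mark matches, on either strand, to CTGGGAA (the core of the interleukin-6 response element), TTGCNNAA (C/EBP) and GTTAAT (an HNF1 site in part), none of which overlap.
Fga: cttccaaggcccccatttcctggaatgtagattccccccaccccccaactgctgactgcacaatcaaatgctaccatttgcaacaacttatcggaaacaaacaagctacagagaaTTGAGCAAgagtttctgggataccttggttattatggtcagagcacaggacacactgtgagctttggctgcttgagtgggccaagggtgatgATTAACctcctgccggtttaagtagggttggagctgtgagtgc
Fgb: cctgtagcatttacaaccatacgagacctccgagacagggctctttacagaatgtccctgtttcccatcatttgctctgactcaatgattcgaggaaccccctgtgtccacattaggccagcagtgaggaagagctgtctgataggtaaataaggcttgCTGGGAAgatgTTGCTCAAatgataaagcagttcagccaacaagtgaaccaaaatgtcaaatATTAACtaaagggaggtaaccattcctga
Fgg: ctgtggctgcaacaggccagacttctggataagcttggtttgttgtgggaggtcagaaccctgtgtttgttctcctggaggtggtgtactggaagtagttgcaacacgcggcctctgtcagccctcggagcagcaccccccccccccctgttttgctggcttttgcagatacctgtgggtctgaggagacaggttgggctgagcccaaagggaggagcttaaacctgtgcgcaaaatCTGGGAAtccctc

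The Fgb window held matches to all of these motifs, with CTGGGAA at 91 to 85 bases before the start, TTGCTCAA at 80 to 73 and GTTAAT on the opposite strand at 29 to 24. The Fga window held TTGAGCAA, a match to the C/EBP pattern on the opposite strand, at 135 to 128 bases before the start, and GTTAAT on the opposite strand at 43 to 38. In the Fgg window CTGGGAA was the one match, at 13 to 7 bases before the start. Among 32851 mouse promoter windows of the same length, 9.10% held CTGGGAA, 9.56% held TTGCNNAA and 6.43% held GTTAAT on either strand. A match describes the letters alone, and a missing one says nothing of whether the factor binds.

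Every value in the deposited table is a log2 ratio, read here as cloned mouse over pool on all arrays, so that a negative value means less of the transcript in the clone. This direction is likely and not settled. The titles name the clone first on every array. The spots beyond 9 in size were all positive on Cy5 arrays (748 spots) and all negative on Cy3 arrays (435 spots). On this reading that places the empty channel in Cy3 throughout. If the Cy3 arrays held pool over clone, the same signs would place it in the pool throughout, so they do not settle the direction. The mean ratios of the Cy5 and the Cy3 arrays, however, correlated across features at -0.371 in Dll1 clone liver, -0.778 in wildtype clone liver, -0.326 in Dll1 clone spleen and -0.460 in wildtype clone spleen. The group values of the members and the medians of the gene lists in liver are therefore also given with the sign of the Cy3 arrays turned, which averages the Cy5 value with the negative of the Cy3 value. Gene names also rest on an inference: rows were named by the probe 11 places earlier. Correlations between probes of the same gene were taken over the mouse means of both organs, with the dyes averaged. Their mean r was 0.0562 over 2258 pairs at this shift, against -0.000694 over 2171 pairs with no shift. The highest mean r at any other shift tried was 0.0323, although within the upper rows of the table, up to its middle, another shift reached 0.0571 where the shift of 11 gave 0.0466.

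The median of an array was never farther from 0 than 0.08. Missing values numbered 59 to 230 on the liver arrays and 248 to 2859 on those of spleen. Values beyond 9 in size were treated as constants for spots without a ratio. The largest value kept was 8.34 in size and the smallest set to missing was 9.04, and the most extreme value of a member was -4.00. In whole organs, fewer cells of a type and less RNA per cell cannot be told apart. Since the table holds ratios and no signal, the level of the hepatocyte markers could not be used to check the tissue. Dll1 itself is no check of the labels, as clone and pool share their genotype.

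Fga, the alpha chain gene, was below its pool in all 8 cloned livers. In Dll1 clone livers its log2 ratio was -0.39, -0.10, 0.15 and -0.45 with the clone in Cy5 and -0.31, -0.17, -0.34 and -0.35 with it in Cy3, for mice 1 to 4. In wildtype clone livers it was -0.41, -0.18, -0.28 and 0.01 in Cy5 and -0.81, -0.80, -0.87 and -0.62 in Cy3. The Cy3 arrays of the wildtype clones thus stood apart as the lowest of the gene, all of them below every other liver array. Averaged over the dyes, Fga lay at -0.24 ± 0.15 in Dll1 clones, or 84.4% of the pool, and at -0.49 ± 0.14 in wildtype clones, or 71.0% of the pool (SD, n = 4 mice each). Turning the Cy3 arrays gave a mean of 0.05 in Dll1 clones and 0.28 in wildtype clones, where all 4 mice were above 0, so that the direction of Fga depends on the reading.

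Fgb, the beta chain gene, was below 0 on all 16 liver arrays, and so in both dyes of every mouse. In Dll1 clone livers its log2 ratio was -0.46, -0.15, -0.24 and -0.59 in Cy5 and -0.15, 0.00, -0.36 and -0.16 in Cy3, where the value of mouse 2 was -0.002 before rounding. In wildtype clone livers it was -0.34, -0.01, -0.43 and -0.27 in Cy5 and -0.52, -0.39, -0.44 and -0.37 in Cy3. Mouse 2 was nearest to the pool in both genotypes, and the other mice of the genotypes overlapped. The mean was -0.26 ± 0.13 in Dll1 clones, 83.3% of the pool, and -0.35 ± 0.11 in wildtype clones, 78.6% of the pool (SD, n = 4 each). Turned, the Cy3 arrays brought it to -0.10 in Dll1 clones and 0.08 in wildtype clones, small beside the values as deposited.

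Fgl1, the hepatocyte mitogen, had the most even values of the 3 genes in Dll1 clones. There its log2 ratio was -0.46, -0.37, -0.43 and -0.49 in Cy5 and -0.68, -0.47, -0.47 and -0.27 in Cy3. In wildtype clones it was -0.26, -0.03, 0.11 and 0.18 in Cy5 and -0.66, -0.61, -0.49 and -0.61 in Cy3, so that the dyes did not overlap. The mean was -0.45 ± 0.08 in Dll1 clones, 73.0% of the pool, and -0.30 ± 0.12 in wildtype clones, 81.4% of the pool (SD, n = 4 each). The wildtype value came from the Cy3 arrays alone, which averaged -0.59, while the Cy5 arrays averaged -0.00. In Dll1 clones the dyes gave almost the same mean, -0.44 in Cy5 and -0.47 in Cy3. On the other reading of the dyes, Fgl1 lay at 0.02 in Dll1 clones and at 0.30 in wildtype clones, with all 4 wildtype mice above 0.

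**Figure D1:**
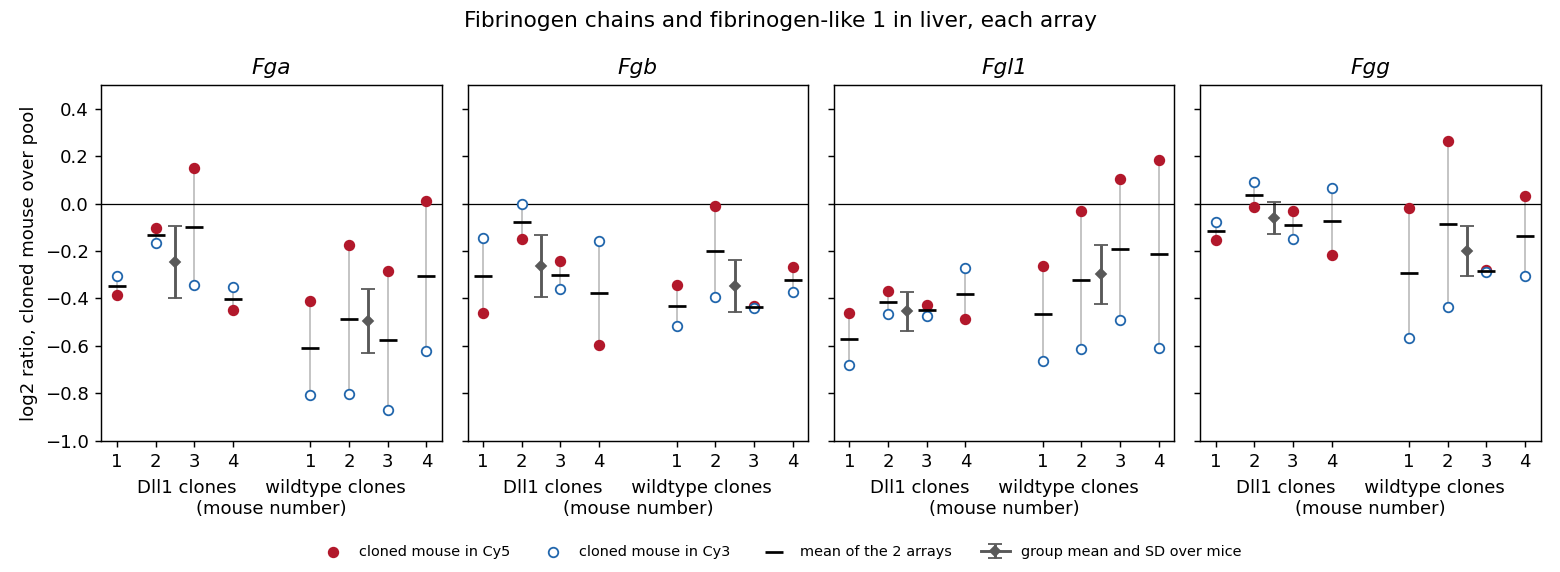
Log2 ratio of cloned mouse over pool in liver for Fga, Fgb, Fgl1 and Fgg on each array (filled red, clone in Cy5; open blue, clone in Cy3), by mouse number; black bars are the mean of the 2 arrays of a mouse, grey diamonds the group mean with its SD over 4 mice. All mouse means of Fga, Fgb and Fgl1 lie below 0, and in wildtype clones the Cy3 arrays of Fga and Fgl1 lie below the Cy5 arrays.

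Fgg, the gamma chain gene, lay nearer to the pool than the members. Its mouse means were -0.12, 0.04, -0.09 and -0.07 in Dll1 clone livers and -0.29, -0.09, -0.29 and -0.14 in wildtype clone livers. The mean was -0.06 ± 0.07 in Dll1 clones (adjusted p = 0.671 by limma) and -0.20 ± 0.10 in wildtype clones (SD, n = 4 each; adjusted p = 0.326 by limma). Over both genotypes Fgg lay at -0.13 (SE 0.03), with 7 of 8 livers below 0, and did not pass the test over all features (limma, adjusted p = 0.186). The gap between Fgg and the other chains was not tested. On the other reading it was -0.04 in Dll1 clones and 0.20 in wildtype clones.

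Over both genotypes the mean log2 ratio in liver was -0.37 for Fga, -0.31 for Fgb and -0.38 for Fgl1, which is 77.4%, 80.9% and 77.1% of the pool. Counted from the lowest of 16901 features, Fgl1 ranked 34, Fga 36, Fgb 51 and Fgg 595, where the median of all features was 0.00. In Dll1 clones Fgl1 was the lowest of the members, at rank 24 of 16916 features, ahead of Fgb at 136 and Fga at 175. In wildtype clones Fga came lowest, at rank 39 of 16948, ahead of Fgb at 106 and Fgl1 at 171. Being below 0 in all 8 livers, as the 3 members were, was seen in 292 of 16709 features measured in every liver, or 1.75%. Limma called 29 of 16901 features (0.172%) in the mean of both genotypes, 14 of 16948 (0.0826%) in wildtype clones and 0 of 16916 in Dll1 clones, where 1584 had an unadjusted p under 0.05. All of these calls were lower in the clones, whereas with the Cy3 arrays turned 3862 features were called higher and 3311 lower in the mean of both genotypes.

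These low ranks hold on the reading as deposited and not on the other. Turned, the mean over both genotypes was 0.16 for Fga, -0.01 for Fgb and 0.16 for Fgl1, at ranks 15140, 7288 and 14955 from the lowest, so that Fga and Fgl1 lay in the upper part of the features and Fgb in the middle. In Dll1 clones Fgb was then the lowest member, at rank 2827, ahead of Fgl1 at 8076 and Fga at 10279. No member kept one sign in all 8 livers when turned, with 6 above 0 for Fga, 5 for Fgb and 7 for Fgl1, although all 4 wildtype livers were above 0 for each of them.

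**Figure D2:**
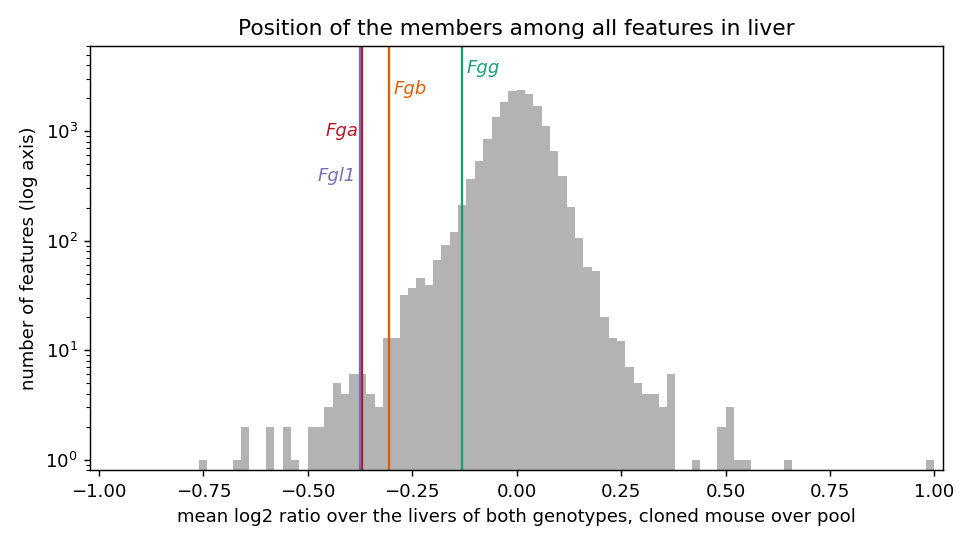
Number of features (log axis) by mean log2 ratio over the livers of both genotypes, cloned mouse over pool on the reading as deposited, with vertical lines at Fga, Fgb, Fgl1 and Fgg; features beyond 1 in size are counted in the end bins. Fga (-0.37), Fgb (-0.31) and Fgl1 (-0.38) lie in the sparse left tail, and Fgg (-0.13) lies at its edge.

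Between mice, the SD of Fgl1 in Dll1 clone livers was 0.08, against a median of 0.11 over all features, and those of Fgb and Fga were 0.13 and 0.15. In wildtype clone livers all of the members varied more than the median feature, with SDs of 0.11 for Fgb, 0.12 for Fgl1 and 0.14 for Fga against a median of 0.09, and 80.9% of features had a smaller SD than Fga. In spleen the median SD over all features was 0.42 in Dll1 clones and 0.27 in wildtype clones, so a difference of the size seen in liver was harder to measure there.

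The next comparison asked whether the ratios of the members in liver differed between the genotypes. Each genotype was set against its own pool, so in either organ a difference between clones cannot be told apart from one between pools. Fga differed by 0.25 between Dll1 and wildtype clones (95% interval 0.05 to 0.45), nearer to the pool in Dll1 clones, and did not pass the test over all features (limma, adjusted p = 0.934). Of the Dll1 mouse means, those of mouse 1 at -0.35 and mouse 4 at -0.40 lay within the wildtype range of -0.61 to -0.31. Fgl1 differed the other way, by -0.16 (95% interval -0.32 to 0.01; limma, adjusted p = 0.934). Its Dll1 mouse means ran from -0.57 to -0.38 and its wildtype means from -0.46 to -0.19, so the groups overlapped. Fgb differed by 0.08 (95% interval -0.10 to 0.26) and Fgg by 0.14 (95% interval -0.01 to 0.29), both at an adjusted p of 0.934 by limma. None of the 3 members passed, and limma called 0 of 16901 features (0%), with 828 at an unadjusted p under 0.05.

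With the Cy3 arrays turned, the same comparison gave -0.23 for Fga (limma, adjusted p = 0.0317), -0.18 for Fgb (adjusted p = 0.0702) and -0.28 for Fgl1 (adjusted p = 0.00993). On that reading 7022 of 16901 features, or 41.5%, were called, and 2 of 3 members past the threshold is not read as particular to them.

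Of the chain genes, Fgb and Fgg had the highest Pearson r between mice, while their rank correlation did not pass after adjustment. Across the 8 livers, Fgb and Fgg correlated at a Pearson r of 0.860 (exact permutation p = 0.00635, adjusted p = 0.0381 over 6 pairs), and at 0.891 with each genotype centred. Spearman's rho for this pair was 0.738 (exact permutation p = 0.0458, adjusted p = 0.249), and r was 0.667 without the 2 livers farthest from the median of Fgb. Fga correlated with Fgg at 0.781 (exact permutation, adjusted p = 0.0607) and a rho of 0.548 (adjusted p = 0.342), and r was 0.757 without the 2 farthest livers and 0.583 with each genotype centred. Fga and Fgb correlated at 0.636 (exact permutation, adjusted p = 0.195) and a rho of 0.667 (adjusted p = 0.249), with an r of 0.469 without the 2 farthest livers. Fgl1 correlated with the chains at -0.279 with Fga, -0.177 with Fgb and -0.257 with Fgg (exact permutation, adjusted p between 0.630 and 0.689), where rho lay between -0.238 and -0.024 (adjusted p between 0.844 and 0.977). With each genotype centred these r were positive, at 0.341 with Fga, 0.0886 with Fgb and 0.324 with Fgg, so the sign of the pooled values follows the genotype means. With 4 livers per genotype, no correlation was computed for either genotype alone. The genes compared share their arrays, and a part of that in these values was not tested. Every pair holds liver values on which a member was chosen, and the permutations ran over all 8 livers whatever the genotype. The p-values therefore do not part genotype from mouse and are given as a description. No correlation was computed with the Cy3 arrays turned.

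In spleen the members did not share a direction. Fga, whose plasma protein is made in liver, had mouse means of -0.43, -0.02, 1.33 and 0.19 in Dll1 clone spleens and -0.34, 0.07, 0.11 and 0.04 in wildtype clone spleens. Mouse 3 of the Dll1 clones stood alone, at 0.93 in Cy5 and 1.74 in Cy3. The Dll1 mean was 0.27 ± 0.75 (SD, n = 4; 95% interval -0.29 to 0.83; limma, adjusted p = 0.695), and it was -0.08 without mouse 3. The wildtype mean was -0.03 ± 0.21 (SD, n = 4; 95% interval -0.59 to 0.53; limma, adjusted p = 0.9999). All 4 Cy5 arrays of Dll1 clones were above 0, and 3 of the 4 Cy3 arrays were below 0, so the dyes pulled apart there. Fga lay, with the Cy3 arrays turned, at 0.31 in Dll1 clones and at 0.28 in wildtype clones.

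Fgb was the member nearest to its liver value in spleen. Its mouse means were -0.23, -0.18, -0.55 and -0.62 in Dll1 clone spleens and -0.08, 0.49, -0.59 and -0.70 in wildtype clone spleens. All but mouse 2 of the wildtype clones were thus below 0. The mean was -0.39 ± 0.22 in Dll1 clones (SD, n = 4; 95% interval -0.84 to 0.05; limma, adjusted p = 0.512). In wildtype clones it was -0.22 ± 0.55 (SD, n = 4; 95% interval -0.67 to 0.23; limma, adjusted p = 0.9999). Over both genotypes Fgb lay at -0.31 (SE 0.14, 95% interval -0.62 to 0.01), with 7 of 8 spleens below 0, and did not pass (limma, adjusted p = 0.619). The turned reading put it at -0.18 in Dll1 clones and -0.17 in wildtype clones.

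Fgl1 in Dll1 clone spleens split by dye. The Cy5 arrays read 1.47, 1.53 and 0.65 for mice 1, 3 and 4, with no value for mouse 2, and the Cy3 arrays read -4.00, -0.94, -0.48 and -0.26 for mice 1 to 4. No Cy3 value reached a Cy5 value. The mean over the 3 mice with both arrays was -0.18 ± 0.95 (SD, n = 3; 95% interval -0.94 to 0.58; limma, adjusted p = 0.856), and mouse 2 was left out of it. In wildtype clone spleens the mouse means were -0.16, 0.21, 0.69 and 0.21, with a mean of 0.24 ± 0.35 (SD, n = 4; 95% interval -0.42 to 0.90; limma, adjusted p = 0.9999). Turning the Cy3 arrays put Fgl1 at 1.40 in Dll1 clones (3 of 3 mice above 0) and at 0.06 in wildtype clones.

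**Figure D3:**
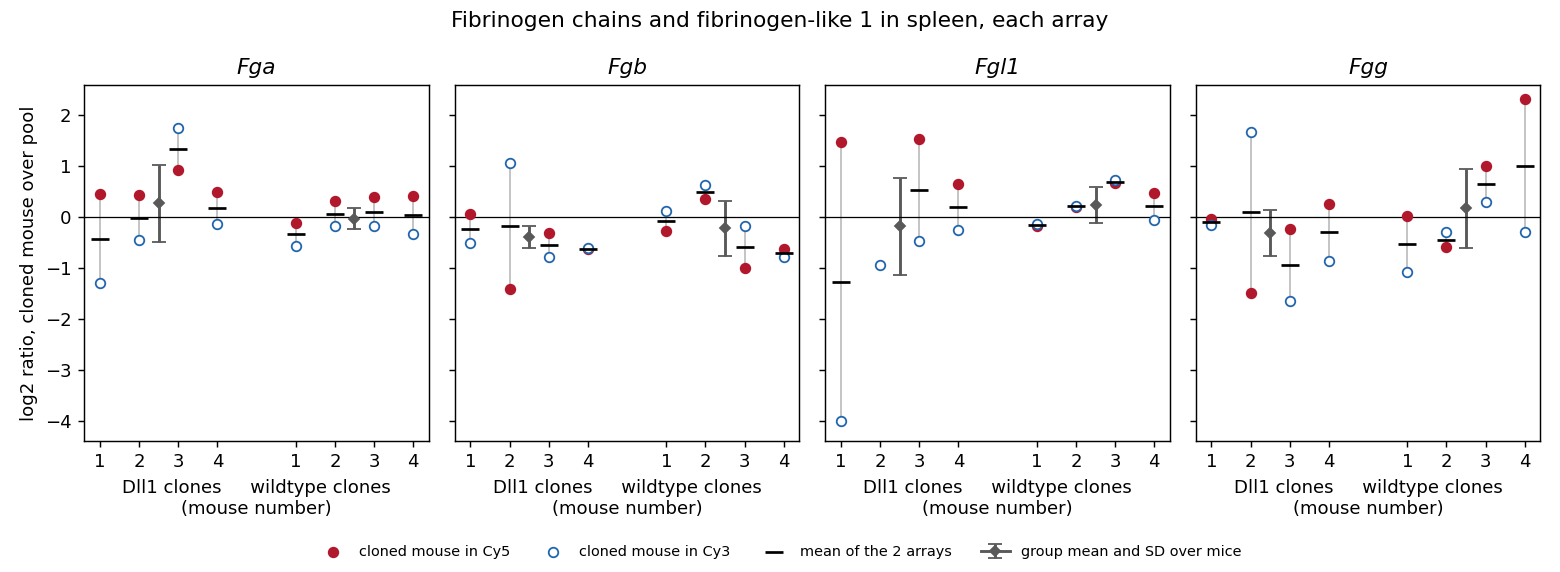
Log2 ratio of cloned mouse over pool in spleen for Fga, Fgb, Fgl1 and Fgg on each array (filled red, clone in Cy5; open blue, clone in Cy3), by mouse number; black bars are the mean of the 2 arrays of a mouse, grey diamonds the group mean with its SD. The axis spans a wider range than in liver, and Fgl1 in Dll1 clones runs from -4.00 in Cy3 to 1.53 in Cy5.

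Over both genotypes the spleen mean was 0.12 for Fga (95% interval -0.28 to 0.52; limma, adjusted p = 0.861) and 0.03 for Fgl1 (95% interval -0.47 to 0.53; limma, adjusted p = 0.980). Between Dll1 and wildtype clones, the spleens differed by 0.30 in Fga (95% interval -0.49 to 1.09), by -0.17 in Fgb (95% interval -0.81 to 0.46) and by -0.42 in Fgl1, with adjusted p from 0.894 to 0.925 by limma. Within each genotype, the spleen interval of every member spanned both 0 and its liver value in that genotype, so neither a lower level nor an equal one was shown. None of the 3 members passed in any of the spleen comparisons. Limma called 0% of features in each of them: 0 of 15879 in Dll1 clones (1638 at an unadjusted p under 0.05), 0 of 16470 in wildtype clones (617), 0 of 15635 in the mean of both (1285) and 0 of 15635 in their difference (742). Fgg lay at -0.31 ± 0.45 in Dll1 clone spleens and at 0.17 ± 0.78 in wildtype clone spleens (SD, n = 4 each), and at -0.06 and 0.52 in these groups with the Cy3 arrays turned.

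The measured genes around the members on the chromosome lay on both sides of the pool in liver. On chromosome 3, Plrg1, a splicing factor next to Fgb, lay at -0.04 over both genotypes, and Sfrp2, a secreted Wnt modulator 4 genes away, at -0.04. Farther off, Gria2, a glutamate receptor subunit 13 genes away, lay at -0.22 (limma, adjusted p = 0.251), lower than Fgg, and Tmem144, 15 genes away, at 0.11. Around Fgl1 on chromosome 8, Pdgfrl lay at -0.02, Vps37a, an endosomal sorting protein, at -0.00, Asah1, the lysosomal acid ceramidase, at 0.03 and Frg1 at -0.11. None of these 8 neighbours passed the test in the liver mean of both genotypes. On the turned reading, where 42.4% of features were called, Pdgfrl (0.25), Plrg1 (0.16) and Asah1 (0.15) passed.

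Genes that work with fibrinogen were read from lists chosen with earlier results of these data known. Among the clotting genes, 10 besides Fga and Fgb were measured, and none passed in the liver mean of both genotypes, where 0.172% of features did. Of these 10, 8 were below 0, with a median log2 ratio of -0.06, against 47.3% of all features below 0 and a median of 0.00. F2, the gene of prothrombin, whose active form cuts fibrinogen, lay at -0.19 in Dll1 clones and -0.21 in wildtype clones, and at -0.20 over both (SE 0.05; limma, adjusted p = 0.157; 0.06 with the Cy3 arrays turned). Of the 9 anticoagulant and fibrinolysis genes, 7 were below 0, with a median of -0.05 and none past the threshold. Serpind1, heparin cofactor II, was at -0.09 (limma, adjusted p = 0.388) and Serping1, the C1 inhibitor, at -0.08 (limma, adjusted p = 0.408) over both genotypes.

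The fibrinogen-related domain that Fgl1 carries is shared by other secreted proteins, which were measured beside it. Of 9 such genes besides Fgl1, 1 was below 0 in the liver mean, the median was 0.06 and none passed. Tnn, tenascin N, and Mfap4, a microfibril protein, both lay at 0.06 (limma, adjusted p = 0.424 and 0.449). All 6 measured receptor genes for fibrinogen or fibrin were below 0, with a median of -0.06 and none past the threshold. Among them were Cdh5, the endothelial cadherin that binds fibrin, at -0.16, Itgam, the alpha chain of a leukocyte integrin, at -0.06, and Itga2b, the alpha chain of the platelet integrin, at -0.06 (limma, adjusted p from 0.250 to 0.574).

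Of the genes that carry the interleukin-6 signal to the fibrinogen genes, or control them in liver, 8 of 13 were below 0 over both genotypes, with a median of -0.03 and none past the threshold. Il6ra, the interleukin-6 receptor, lay at -0.16 in Dll1 clones and -0.40 in wildtype clones, and at -0.28 over both (SE 0.06; limma, adjusted p = 0.117; -0.06 with the Cy3 arrays turned). Il6st, the shared signalling receptor gp130, lay at -0.13 over both (SE 0.03; limma, adjusted p = 0.161). Other acute phase proteins, which interleukin-6 raises as it raises fibrinogen, were below 0 in 13 of 16 genes, with a median of -0.07 and none past the threshold. The lowest was Orm1, the acute phase protein orosomucoid, at -0.47 ± 0.30 in Dll1 clones and -0.43 ± 0.21 in wildtype clones (SD, n = 4 each), below 0 in all 8 livers (over both genotypes -0.45, SE 0.07; limma, adjusted p = 0.0567; 0.04 with the Cy3 arrays turned). Itih4, a protease inhibitor heavy chain of plasma, lay at -0.23 over both (limma, adjusted p = 0.138).

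Plasma proteins that fall in the acute phase lay below the pool as well, in 6 of 6 genes, with a median of -0.13 and none past the threshold. Ttr, transthyretin, and Trf, transferrin, were both at -0.14 over both genotypes (limma, adjusted p = 0.186 and 0.136). The hepatocyte markers, a list that holds some of the same genes, were below 0 in 12 of 13, with a median of -0.14, and the medians were -0.08 in Dll1 clones and -0.18 in wildtype clones. Tat, tyrosine aminotransferase, lay at -0.29 (limma, adjusted p = 0.0774) and Arg1, the arginase of the urea cycle, at -0.20 (limma, adjusted p = 0.0567). Genes of protein folding and export in the endoplasmic reticulum, the route by which fibrinogen is secreted, were below 0 in 8 of 10, with a median of -0.06. Hspa5, the chaperone BiP, was at -0.12 and Mcfd2, a cargo receptor for clotting factors, at -0.11, neither past the threshold (limma, adjusted p = 0.263 and 0.185). The mean of Hspa5 came from wildtype clones, at -0.28, while Dll1 clones lay at 0.03.

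**Figure D4:**
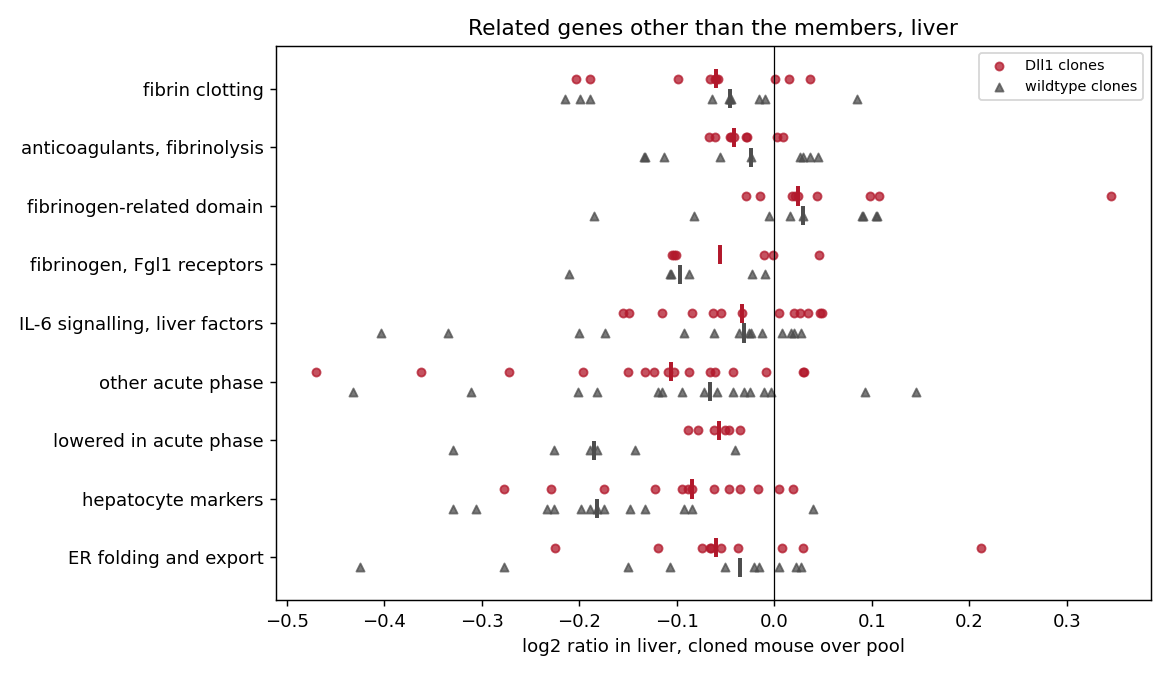
Log2 ratio in liver, cloned mouse over pool, of each listed gene other than Fga, Fgb and Fgl1 (red circles, mean of 4 Dll1 clones; grey triangles, mean of 4 wildtype clones), with a vertical bar at the median of the list. On the reading as deposited, most points of the acute phase and hepatocyte lists lie below 0, and those of the fibrinogen-related domain list lie on both sides of 0.

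Markers of other cells of the liver were near the pool, except in endothelium. The 5 endothelial markers were all below 0, with a median of -0.13, among them Kdr, a receptor for vascular endothelial growth factor, at -0.16 (limma, adjusted p = 0.136). The medians lay between -0.04 and 0.00 for markers of platelets (3 of 5 below 0), erythroid cells (3 of 7), Kupffer cells (4 of 7), stellate cells (4 of 7), bile duct (4 of 5), B and T cells (6 of 9) and exocrine pancreas (3 of 4). Hba-a1, an alpha globin gene, lay at -0.44 over both genotypes (SE 0.05; limma, adjusted p = 0.00856) and was below 0 in all 8 livers. With the Cy3 arrays turned, Hba-a1 lay at -0.08 (limma, adjusted p = 0.207). Rhd, another erythroid marker, lay the other way, at 0.14 in Dll1 clones and 0.14 in wildtype clones. Cd163, a macrophage receptor, was the lowest of the Kupffer cell markers, at -0.25 (limma, adjusted p = 0.132). Marco, another of them, lay above the pool, at 0.07 in Dll1 clones and 0.06 in wildtype clones. The part of globin, hepatocyte and endothelial genes in the values of the members was not tested.

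The direction of these lists also depends on the reading of the dyes. Over both genotypes with the Cy3 arrays turned, the receptors turned to a median of 0.13 (2 of 6 below 0), the endothelial markers to 0.10 (1 of 5) and the proteins lowered in the acute phase to 0.07 (1 of 6). The interleukin-6 and liver factor list lay at 0.05 (3 of 13 below 0), the clotting genes at 0.04 (3 of 10), the anticoagulant and fibrinolysis genes at 0.01 (4 of 9), the folding and export genes at 0.01 (4 of 10) and the other acute phase proteins at 0.01 (8 of 16). The fibrinogen-related domain list turned the other way, to -0.03 (5 of 9 below 0), and the hepatocyte markers lay at -0.01 (8 of 13). The other marker lists had medians from -0.08 for erythroid cells (6 of 7 below 0) to 0.07 for platelets (2 of 5). The median of all features was 0.02 on this reading, with 45.3% of features below 0. Single genes did not all turn. Itih4 (-0.27), Tat (-0.23), Kdr (-0.14) and Il6st (-0.12) stayed below 0 and passed by limma, where 42.4% of features were called. Itgam (0.29), Serpind1 (0.28), Itga2b (0.24), Mcfd2 (0.12) and Trf (0.11) passed above 0. Rhd (-0.39) and Mfap4 (-0.22) turned to below 0 and passed.

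The genes whose pattern over all 16 organ values came nearest to the mean of the members were Mfap3, a microfibril protein (Pearson r = 0.876), Slc11a2, an iron transporter (0.865), Adk, adenosine kinase (0.855), Rbck1, a subunit of a ubiquitin ligase (0.854), and Tesc, a calcium-binding protein (0.852), of 6734 genes compared. Fgg ranked 4474 by this measure, at -0.193. For the spleen of Dll1 clone mouse 2, where Fgl1 had no mouse mean, the mean of the members was that of Fga and Fgb alone. The values share their arrays and the wide spread of the spleens, and these correlations are given as a description. Of these 5 genes, Adk lay lowest in liver, at -0.18 in Dll1 clones and -0.16 in wildtype clones, and the other 4 lay between -0.07 and 0.03.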

How the data were processed

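Per the labels' protocols, total RNA of each organ was extracted with RNeasy kits and labelled indirectly with Cy3 or Cy5. The authors deposited 1 log2 ratio per probe and array. How the ratios were normalized, background-corrected and filtered is not given in the sources used here, and base 2 was inferred from their size. Signal over background was not analysed, and precision is limited by the number of arrays.

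The members and gene lists were chosen with earlier results of these data known. Groups came from the labels, and mice are numbered by the order of the liver titles. All 12771 probes in the platform table carried 1 symbol, and 12760 of 20794 table entries were named through the shift of 11 places, which was chosen from these values. Values over 9 in size were set to missing, probes of a gene were averaged, and the 2 arrays of a mouse were averaged, so that the mouse is the replicate. Limma 3.58.1 in R 4.3.3 was fitted per organ on 8 mouse means, for features measured in at least 3 mice of each group, with 2-sided p-values adjusted by Benjamini-Hochberg over all features and a threshold of 0.05.

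The genes named were the members on every array, Fgg and the 5 genes most correlated with the mean of the members. Per list, genes past the threshold and the 2 of smallest p in the liver mean were picked. The neighbours on the chromosome were added to these. Genes picked from the marker lists of platelets, stellate cells, bile duct, B and T cells and exocrine pancreas were mostly left unnamed. Promoter windows are from RefSeq, GRCm38.p6, in which Fga, Fgb and Fgg matched.

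The alternatives were the Cy3 arrays turned, centring, scaling, constants kept, features measured in all mice, single arrays with a dye term and mouse as a random block, both organs in 1 fit, robust variance, single probes, no shift of names, the replicate block and leaving out each mouse. Same-numbered Dll1 and wildtype mice share only a number: their deviations correlated from -0.0265 to 0.141 (liver) and from -0.0047 to 0.0135 (spleen).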

Additional observations from a re-analysis of the deposited data

Results flagged for a closer look

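In a group of 4, chance sets 1 sample this far apart in about 1 in 20 groups, and the groups of all members were looked at. Fga in wildtype clone spleens lay at -0.34 in mouse 1, below the other mice, which lay between 0.04 and 0.11. In the same group Fgl1, with its Cy3 arrays turned, lay at 0.27 in mouse 4, above the other mice.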

How the results depend on the processing

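In liver, the ratios of Fga, Fgb and Fgl1 kept their sign under centring, scaling, constants kept, both organs in 1 fit and leaving out any 1 mouse. Scaling, which takes 1 spread for both organs, moved several by over 1.5 times: in Dll1 clone liver to -0.46 for Fga, -0.49 for Fgb and -0.86 for Fgl1, in the liver mean to -0.47 for Fgb and -0.63 for Fgl1, and the genotype difference of Fgl1 to -0.46. It also changed the sign of the genotype difference of Fgb in liver, from 0.08 to -0.04. The signs turned under the other reading of the dyes: with the Cy3 arrays turned, Fga was 0.048, 0.28 and 0.16 in Dll1 clones, wildtype clones and their mean, Fgl1 was 0.018, 0.30 and 0.16, Fgb was 0.084 in wildtype clones, and the genotype difference of Fga was -0.23. With no shift of names, the entries then called Fgb gave 0.056, 0.10 and 0.077 and those called Fgl1 gave 0.10, 0.011 and 0.054. Of 240 member values in the tested comparisons, 18 changed sign and 2 passed the threshold, both with the Cy3 arrays turned.

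With the Cy3 arrays turned, features called numbered 856 in Dll1 clone liver, 9262 in wildtype clone liver, 7173 in the liver mean, 7022 in the liver difference, 730 in Dll1 clone spleen, 188 in wildtype clone spleen and 2095 in the spleen mean. With single arrays and a dye term they numbered 12, 54 and 218 in the liver groups and mean, and 1, 8 and 65 in those of spleen. With both organs in 1 fit they numbered 0 in wildtype clone liver and in the liver mean, and 1143, 117, 714 and 87 in Dll1 spleen, wildtype spleen, their mean and their difference. Scaling gave 0 in wildtype clone liver and 9 in the liver mean, constants kept 6 and 19, centring 19 in the liver mean and single probes 46 there. Leaving out a mouse gave 0 to 1 in Dll1 clone liver, 0 to 7 in wildtype clone liver (0 without mouse 1, 2 or 3, and 7 without mouse 4), 11 to 49 in the liver mean (11 without wildtype mouse 3, 49 without Dll1 mouse 2), and 0 to 1 in Dll1 clone spleen and in the spleen mean. The cause was not tested. With the mouse number as a replicate block, 0 of 16896 features were called in the liver difference and 0 of 15468 in the spleen difference, as without it. Under that block Fga, Fgb and Fgl1 kept the liver differences of 0.25, 0.08 and -0.16. Missing values and the wide spread limit what the spleen arrays can show.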
